A study of Rattus norvegicus with 8 samples.

Results

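The small leucine-rich proteoglycans decorin (Dcn), lumican (Lum), biglycan (Bgn), fibromodulin (Fmod) and osteoglycin (Ogn) and the matricellular proteins periostin (Postn), Sparc, thrombospondins 1 and 4 (Thbs1, Thbs4) and osteopontin (Spp1) were followed across hearts of old female rats with and without ovaries and estradiol. Every probe set annotated to exactly 1 of these 10 symbols was taken, which gave 13 of the 31099 probe sets on the array. They stood for 9 genes, since no probe set was annotated to Thbs1. Ogn had 4 probe sets, Sparc 2 and each other gene 1. All 13 passed the filter on dim probe sets, which kept 18625.

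RNA came from hearts of female Norway Brown rats aged 18 to 22 months. The animals had sham surgery, in which the body cavity was opened and closed with nothing removed, or ovariectomy alone (Ovx), or ovariectomy with estradiol from surgery on (early estradiol), or ovariectomy with estradiol from 9 weeks after it (late estradiol). Estradiol was 17-β estradiol in a 0.5 mg pellet under the skin of the neck that releases over 90 days. Each group had 2 arrays, and each array held equal amounts of RNA from 3 hearts, so that differences between single animals were averaged within a pool. A p-value here measures the spread between pools, which can be technical in part. In RNA of a tissue, fewer cells of a type and less RNA per cell cannot be told apart.

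Small leucine-rich proteoglycans are secreted by fibroblasts, bind collagen fibrils through their leucine-rich core and help to set fibril width and spacing. Matricellular proteins are secreted into the matrix but signal to cells rather than bear load. Several are low in the resting adult heart, and they are known to be induced by injury, pressure overload and infarction. Postn is made by activated fibroblasts, Sparc is a collagen-binding protein needed for collagen deposition, thrombospondins bind matrix and growth factors, and Spp1 is an integrin ligand made by macrophages among other cells.

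The start regions of 4 members are shown because their values differed most between arrays or groups, or, for Lum, because it stands for the proteoglycans that lay together. Each is the 250 bases before the start of the gene, 5′ to 3′ on the gene's strand, from RefSeq on GRCr8, whose promoter table held 8 of the 10 members. Postn lies at chr2:140677811-140678060 on the plus strand, Thbs4 at chr2:25760346-25760595 on the minus strand, Spp1 at chr14:5619805-5620054 on the minus strand and Lum at chr7:34245456-34245705 on the plus strand. Capitals mark matches, on either strand, to the motifs named after the sequences.
Postn: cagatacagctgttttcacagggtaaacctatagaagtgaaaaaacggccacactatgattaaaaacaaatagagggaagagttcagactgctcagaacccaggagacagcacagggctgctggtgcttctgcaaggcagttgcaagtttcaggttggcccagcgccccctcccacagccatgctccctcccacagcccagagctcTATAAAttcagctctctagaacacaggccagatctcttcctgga
Thbs4: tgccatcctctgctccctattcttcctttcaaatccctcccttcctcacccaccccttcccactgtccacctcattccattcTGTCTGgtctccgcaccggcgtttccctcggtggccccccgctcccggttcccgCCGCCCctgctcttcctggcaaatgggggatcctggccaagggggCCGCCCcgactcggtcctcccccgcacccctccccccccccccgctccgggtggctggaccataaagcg
Spp1: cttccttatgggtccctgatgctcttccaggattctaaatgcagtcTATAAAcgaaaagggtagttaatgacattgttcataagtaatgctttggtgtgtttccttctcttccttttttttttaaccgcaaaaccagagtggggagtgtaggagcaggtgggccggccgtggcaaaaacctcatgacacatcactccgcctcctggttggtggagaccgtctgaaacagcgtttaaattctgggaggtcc
Lum: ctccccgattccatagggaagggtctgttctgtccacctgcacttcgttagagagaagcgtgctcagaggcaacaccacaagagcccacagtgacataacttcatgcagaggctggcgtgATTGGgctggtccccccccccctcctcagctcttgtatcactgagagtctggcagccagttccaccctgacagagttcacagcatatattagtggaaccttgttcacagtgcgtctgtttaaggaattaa

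In these windows 8 motifs were searched on both strands: the full estrogen response element (GGTCA and TGACC with 3 bases between them), its core GGTCA, the AP-1 site TGANTCA, the TATA box TATAAA, the GC box GGGCGG, the CCAAT box, the Runx site AACCACA and the Smad site CAGACA. The core is contained in the full element. Postn held a TATA box 44 to 39 bases before the start, Thbs4 held 2 GC boxes and a Smad site, Spp1 held a TATA box 204 to 199 bases before the start, and Lum held a CCAAT box. The full element was in 0 of the 8 members and in 0.0239% of 33469 promoter windows, and the core was in 1 member (Fmod) and in 35.4% of windows. A TATA box was in 3 members and in 12.9% of windows, a GC box in 3 and in 30.5%, a CCAAT box in 3 and in 34%, and a Smad site in 2 and in 17.2%. AP-1 and Runx sites were in 0 members and in 6.34% and 4.59% of windows. These matches are a description of the letters in the windows.

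All expression values below are log2 signals after quantile normalization. The arrays differed in brightness with their number: as deposited, every array numbered 1 was dim (trimmed mean 28.1 to 69.8) beside those numbered 2 (103.8 to 136.9). The dimmest, late estradiol replicate 1, had a 3′ to 5′ signal ratio for Gapdh, a sign of RNA quality, of 2.70 against 1.26 to 1.65 on the other 7 arrays. Differences of the members are therefore also given within each replicate number or with an array left out where this moved them. Cardiomyocyte genes were high on all arrays, with Myh6 at 12.41 to 12.76 and Tnnt2 at 12.92 to 13.08. In limma with Benjamini-Hochberg adjustment over all 18625 probe sets, 0% passed the threshold of 0.05 in each of the 6 pairwise comparisons and in the F test over the 4 groups, so no member passed either. At an unadjusted limma p under 0.05 there were 144 to 811 probe sets in a comparison (0.773% to 4.35%), fewer than the 931 expected by chance. In the F test there were 346. Of the 13 member probe sets, 1 to 4 were under 0.05 in a comparison. With the replicate number as a block, 1 probe set passed in 1 comparison, and it was no member. The number of arrays limits this precision, and what follows gives levels, differences with their standard errors, and how often the 2 arrays of a group lay wholly above or below those of another.

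**Figure D1:**
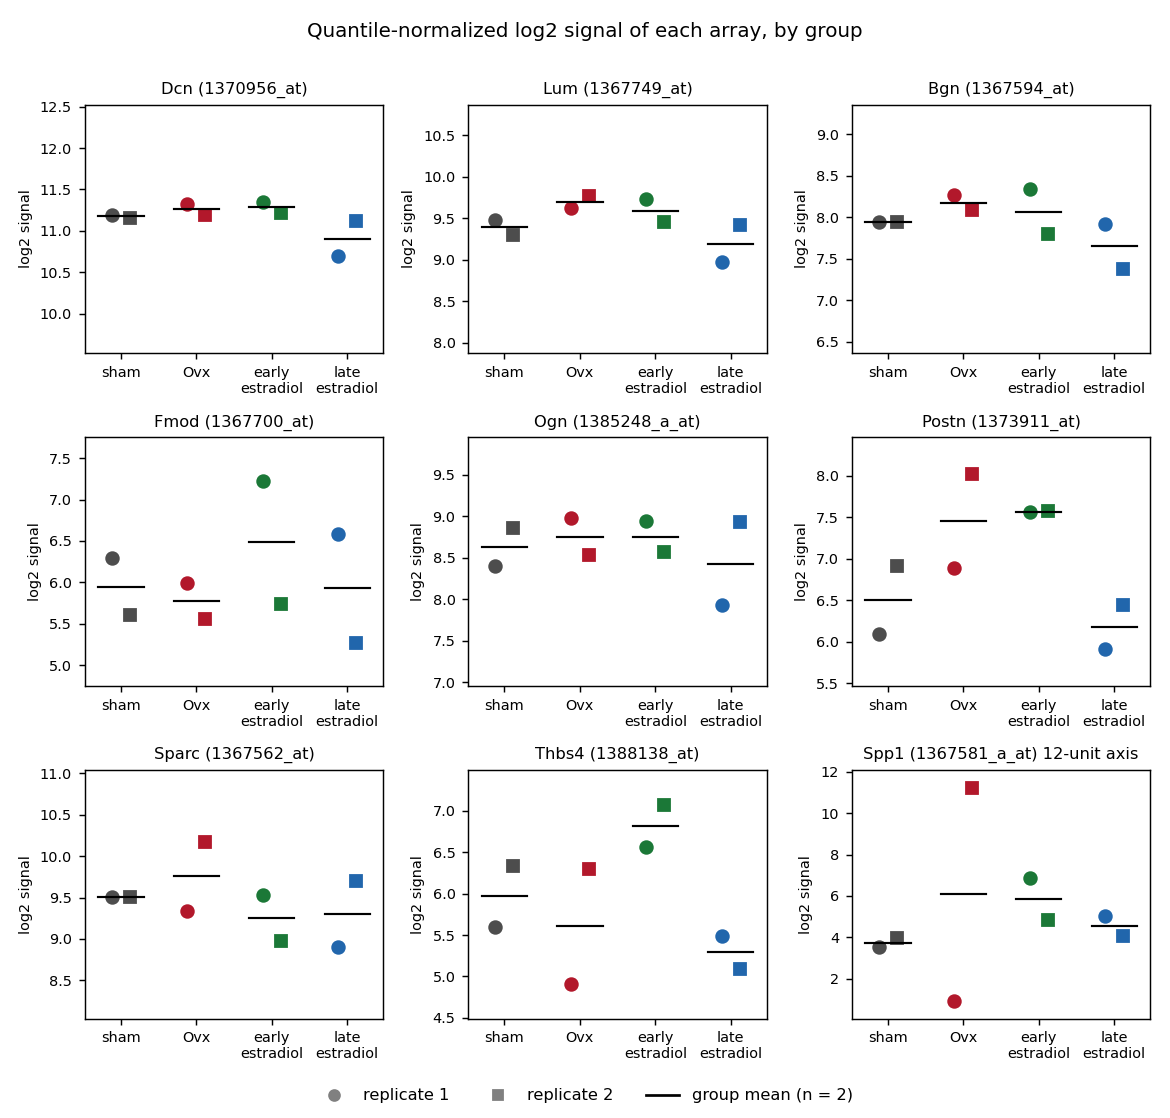
Quantile-normalized log2 signal (y axis) of the 9 measured genes in each of the 8 arrays, by group (x axis); circles are replicate 1, squares replicate 2 and bars group means. Each gene is drawn at its brightest probe set on a 3-unit axis, except Spp1 on a 12-unit axis; Postn was lowest with late estradiol, Thbs4 highest with early estradiol, and Spp1 was set apart by the Ovx replicate 2 array at 11.21.

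Periostin was low with late estradiol and high after Ovx and with early estradiol. The order of its group means was shared by Dcn, and Lum and Bgn also ran from late estradiol over sham to the other groups, with smaller differences. Its log2 signal, replicate 1 first, was 6.10 and 6.91 in sham, 6.89 and 8.02 after Ovx, 7.56 and 7.58 with early estradiol, and 5.91 and 6.44 with late estradiol. Both early estradiol arrays lay above all sham and all late estradiol arrays, both Ovx arrays lay above both late estradiol arrays, and the Ovx and sham arrays overlapped by a narrow margin. The group means ordered as late estradiol (6.17 ± 0.38, SD, n = 2), sham (6.50 ± 0.57), Ovx (7.46 ± 0.80) and early estradiol (7.57 ± 0.01). The neighbours late estradiol and sham (difference -0.33 ± 0.41, SE) and the neighbours early estradiol and Ovx (0.11 ± 0.41) did not differ beyond their standard errors.

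Postn with late estradiol was 2.43-fold below Ovx, a log2 difference of -1.28 ± 0.41 (95% interval -2.19 to -0.38, limma adjusted p = 0.943). It was 2.63-fold below early estradiol, at -1.39 ± 0.41 (interval -2.30 to -0.49, limma adjusted p = 0.987). Within replicate numbers the late minus Ovx difference was -0.98 and -1.58, and the late minus early difference was -1.66 and -1.13, so each was negative in both. Without the dim late estradiol array these differences were -1.01 and -1.13. Against sham, Postn stood at 0.96 ± 0.41 after Ovx (0.79 and 1.12 within replicate numbers; limma adjusted p = 1) and at 1.07 ± 0.41 with early estradiol (1.47 and 0.67; limma adjusted p = 0.9999). Without Ovx replicate 2, the Ovx minus sham difference was 0.39 and the late estradiol minus Ovx difference was -0.72.

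Thrombospondin 4, a matricellular protein of muscle and tendon that the stressed heart is known to induce, was highest with early and lowest with late estradiol. Its signal was 5.60 and 6.34 in sham, 4.91 and 6.30 after Ovx, 6.56 and 7.07 with early estradiol, and 5.49 and 5.09 with late estradiol. Both early estradiol arrays were the highest of all 8, and the late estradiol arrays lay below both sham arrays but overlapped with Ovx. The group means were 5.29 ± 0.28 (SD, n = 2) with late estradiol, 5.60 ± 0.98 after Ovx, 5.97 ± 0.52 in sham and 6.82 ± 0.37 with early estradiol. Of these, late estradiol against Ovx (-0.31 ± 0.48, SE) and Ovx against sham (-0.37 ± 0.48) differed by less than their standard errors.

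Thbs4 was 2.88-fold lower with late than with early estradiol, at -1.53 ± 0.48 (95% interval -2.60 to -0.45, limma adjusted p = 0.987), with -1.07 in replicate 1 and -1.98 in replicate 2. Without the dim late estradiol array this difference was -1.73. Early estradiol against Ovx stood at 1.21 ± 0.48 (interval 0.14 to 2.29, limma adjusted p = 0.9998), with 1.65 and 0.78 in the replicate numbers, and at 0.52 without Ovx replicate 1. The late estradiol minus Ovx difference had no stable sign: it was 0.58 in replicate 1 and -1.21 in replicate 2, -0.51 without the dim late estradiol array and 0.38 without Ovx replicate 2. Late estradiol against sham stood at -0.68 ± 0.48 and early estradiol against sham at 0.85 ± 0.48 (limma adjusted p = 0.9967 and 0.9999), and the former was -0.88 without the dim array.

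Osteopontin varied more over the 8 arrays than any other of the 18625 tested probe sets, and that range lay between the Ovx arrays. The signal of Spp1 was 3.51 and 3.98 in sham, 0.95 and 11.21 after Ovx, 6.88 and 4.85 with early estradiol, and 5.03 and 4.06 with late estradiol. The Ovx arrays held both the lowest and the highest value, 10.26 log2 units apart, against a median range over the arrays of 1.16 for all probe sets. On the deposited scale these arrays read 1.71 and 4159, and the other 6 arrays 13.5 to 74.4. The 1.71 lies close to the floor of 1 and below the median signal of that array (17.0), so the low end of the range is a dim reading. The highest array stood 4.33 log2 units, or 20.1-fold, above the next highest, the largest such gap among the 18625 probe sets.

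With this gap, no difference of Spp1 that used Ovx had an interval away from 0: Ovx minus sham was 2.33 ± 2.39 (SE), with -2.57 in replicate 1 and 7.23 in replicate 2. Without Ovx replicate 1 it was 7.46, and without Ovx replicate 2 it was -2.80. Each of these values rests on a single Ovx array, so the Ovx group then had no spread of its own. Late estradiol minus Ovx was -1.53 ± 2.39, with 4.09 and -7.15 in the replicate numbers, and stood at 3.60 without Ovx replicate 2. The values of replicate 1 and those without Ovx replicate 2 rest on the dim reading of Ovx replicate 1. With 32 added to every signal, Ovx minus sham was 2.64 ± 1.35 (SE) and late estradiol minus Ovx -2.33 ± 1.35. Of the comparisons without Ovx, early estradiol stood above sham on both arrays, by 3.37 and 0.87, and late estradiol by 1.52 and 0.08. These rest on low sham signals: with 32 added to every signal before log2, the early estradiol minus sham difference went from 2.12 to 1.09 and the late estradiol minus sham difference from 0.80 to 0.31. Without the dim array the latter was 0.31 as well. The fit shares its spread over all 8 arrays, so the SE of these differences (2.39) also carries the Ovx gap.

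The fibril-binding proteoglycans Dcn and Lum had narrow ranges and lay close together. Dcn, which binds type I collagen and TGF-β, stood at 11.19 and 11.16 in sham, 11.33 and 11.20 after Ovx, 11.35 and 11.22 with early estradiol, and 10.69 and 11.12 with late estradiol. Both late estradiol arrays were the lowest of the 8, but the second of them stood at only -0.05 against sham of the same number. Lum, a keratan sulfate proteoglycan, stood at 9.48 and 9.30 in sham, 9.62 and 9.77 after Ovx, 9.73 and 9.46 with early estradiol, and 8.97 and 9.42 with late estradiol. Both Ovx arrays of Lum lay above both sham and both late estradiol arrays.

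With late estradiol, Dcn stood at -0.36 ± 0.17 (SE) against Ovx and -0.38 ± 0.17 against early estradiol, and Lum at -0.50 ± 0.20 and -0.40 ± 0.20 (limma adjusted p = 0.943 and 0.987 for both genes). These values leaned on the dim array: the Dcn differences were -0.64 and -0.66 in replicate 1 against -0.08 and -0.10 in replicate 2, and those of Lum -0.65 and -0.76 against -0.36 and -0.04. Without late estradiol replicate 1, Dcn stood at -0.15 and -0.17 and Lum at -0.28 and -0.17. Between Ovx and sham, Lum differed by 0.31 ± 0.20, with 0.14 and 0.47 in the replicate numbers, and Dcn by 0.09 ± 0.17 (limma adjusted p = 1 for both).

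Biglycan, the close relative of decorin that also signals through Toll-like receptors, stood at 7.94 on both sham arrays, 8.26 and 8.08 after Ovx, 8.34 and 7.80 with early estradiol, and 7.92 and 7.38 with late estradiol. Both late estradiol arrays of Bgn lay below both sham and both Ovx arrays, the first of them by a narrow margin to sham. Late estradiol against Ovx was -0.52 ± 0.26 (SE; limma adjusted p = 0.943), and in contrast to Dcn and Lum the larger of the within-replicate values was in replicate 2 (-0.70 against -0.35). Without the dim array it was -0.79. Fibromodulin, which binds fibrils at the same site as lumican, stood at 6.29 and 5.60 in sham, 5.99 and 5.56 after Ovx, 7.23 and 5.74 with early estradiol, and 6.59 and 5.27 with late estradiol. Replicate 1 was above replicate 2 in every group for Fmod, and no pair of groups was separated. Early estradiol minus Ovx was 0.71 ± 0.56 for Fmod, and its 95% interval of -0.54 to 1.96 spans both directions.

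Osteoglycin and Sparc were read by several probe sets that did not move alike. The brightest Ogn probe set, 1385248_a_at, stood at 8.39 and 8.85 in sham, 8.98 and 8.53 after Ovx, 8.94 and 8.56 with early estradiol, and 7.93 and 8.93 with late estradiol. All 4 probe sets had their lowest value of the 8 arrays on late estradiol replicate 1: 7.93 for 1385248_a_at, 5.99 for 1390450_a_at, 5.76 for 1383263_at and 7.46 for 1376749_at. On late estradiol replicate 2, 1390450_a_at had its highest value (7.55), so its late minus Ovx difference was -1.26 in replicate 1 and 0.72 in replicate 2. Of the 4, 1383263_at differed most: it stood at 5.76 and 6.84 with late estradiol against 7.13 and 7.26 in sham, a difference of -0.89 ± 0.35 (SE; limma adjusted p = 0.9967) that was -0.36 without the dim array.

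For Sparc, 1367562_at stood at 9.50 and 9.51 in sham, 9.34 and 10.17 after Ovx, 9.53 and 8.98 with early estradiol, and 8.91 and 9.70 with late estradiol. The other probe set, 1367563_at, stood at 9.32 and 8.93, 9.59 and 9.09, 9.44 and 8.83, and 9.26 and 8.61 in the same order. The latter was higher in replicate 1 than in replicate 2 in every group, while 1367562_at was lower in replicate 1 in all groups but early estradiol. Late estradiol against Ovx was -0.45 ± 0.32 (SE) for 1367562_at and -0.40 ± 0.29 for 1367563_at, and negative in both replicate numbers (-0.43 and -0.47, and -0.33 and -0.47). With 1 array left out the probe sets parted: they stood at -0.052 and -0.73 without the dim late estradiol array, and at -0.036 and -0.65 without Ovx replicate 2. For late against early estradiol neither difference exceeded its standard error, at 0.05 ± 0.32 and -0.20 ± 0.29. Without the dim array they were 0.45 ± 0.34 and -0.52 ± 0.32, each beyond its standard error and in opposite directions.

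**Figure D2:**
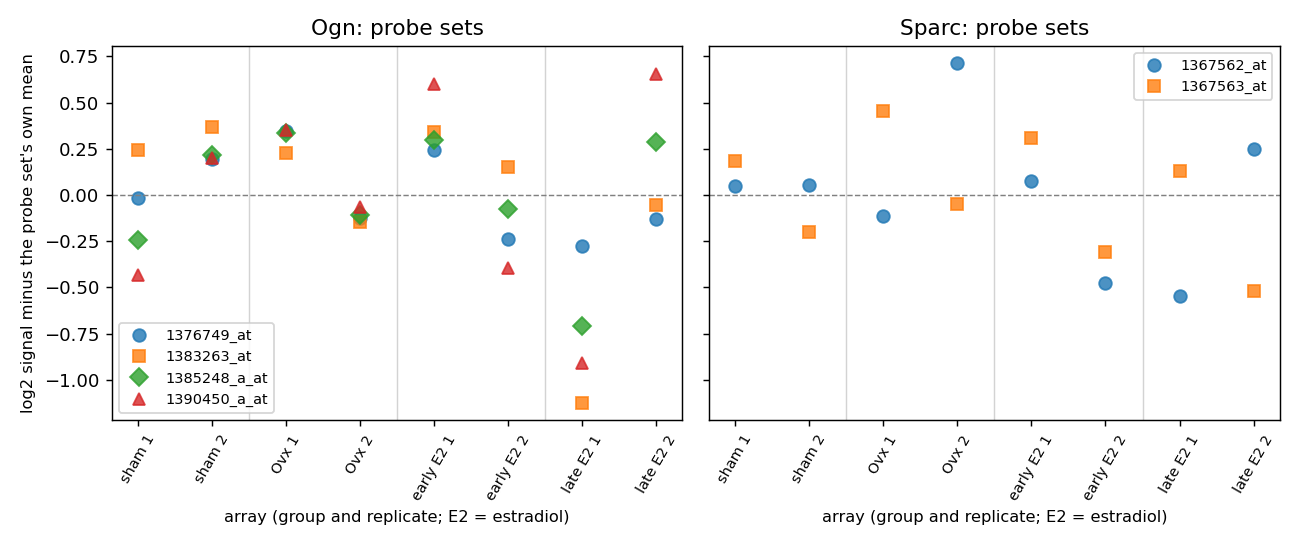
Log2 signal minus the probe set's own mean over the 8 arrays (y axis) for the 4 probe sets of Ogn and the 2 of Sparc, by array (x axis). The Ogn probe sets lay 0.12 and 0.08 apart on the Ovx arrays, 0.85 and 0.78 apart on the late estradiol arrays and 0.17 to 0.67 apart on the others. The Sparc probe sets lay 0.57 to 0.77 apart on the Ovx and late estradiol arrays and 0.14 to 0.25 apart on the others.

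Counted over the 13 probe sets by group means, most members were lower with late estradiol than in each other group, and most were higher after Ovx or with early estradiol than in sham, the latter by the replicate 1 arrays. The 4 Ogn probe sets share a gene and the 2 of Sparc do too, and comparisons that share a group share its arrays. Against Ovx, late estradiol was lower in 12 of 13, with a median of -0.40 where that of all tested probe sets was 0.01, and 5 of 13 (38.5%) had both arrays below both Ovx arrays, against 13.4% of all probe sets. These were Dcn, Lum, Bgn, Postn and 1376749_at of Ogn, the last by a narrow margin (late estradiol replicate 2 at 7.614, Ovx replicate 2 at 7.616). Wholly above lay 0, against 15.7%. Against early estradiol, late estradiol was also lower in 12 of 13 (median -0.40, all probe sets -0.01), and 5 (38.5%) lay wholly below, against 16.3%: Dcn, Lum, Postn, Thbs4 and 1383263_at of Ogn. None of the 13 lay wholly above, against 15.5%. Without the dim late estradiol array, 11 of 13 were lower than after Ovx (median -0.28) and 10 of 13 than with early estradiol (median -0.30). Against sham, late estradiol was lower in 12 of 13 (median -0.20, all probe sets -0.02), with 5 (38.5%) wholly below, against 16.1%, and 1 (7.69%, Spp1) wholly above, against 14.5%. That count leaned on the dim array, without which 8 of 13 were lower and 5 higher (median -0.06): Lum, Spp1, 1367562_at of Sparc, and 1385248_a_at and 1390450_a_at of Ogn.

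Ovx was higher than sham in 10 of 13 probe sets (median 0.21, all probe sets -0.03). Of these 3 (23.1%), Dcn, Lum and Bgn, lay wholly above sham, against 11.1% of all probe sets, and 1 (7.69%, 1383263_at of Ogn) lay wholly below, against 14.1%. Margins were narrow for Dcn (lower Ovx array 11.1952, higher sham array 11.1925) and for 1383263_at (higher Ovx array 7.118, lower sham array 7.131). Early estradiol was higher than sham in 10 of 13 (median 0.13, all probe sets 0.00), and 4 (30.8%), Dcn, Postn, Thbs4 and Spp1, lay wholly above, against 12.1%, with 0 wholly below, against 12.7%. In replicate 1 all 13 were higher than in sham (median 0.39), but in replicate 2 only 6 were higher and 7 lower (median -0.11). For Ovx against sham, 8 of 13 were higher in replicate 1 (median 0.14) and 7 of 13 in replicate 2 (median 0.03). Early estradiol against Ovx showed 5 higher and 8 lower (median -0.04, all probe sets 0.02), with 1 (7.69%, Thbs4) wholly above, against 14.7%, and 0 wholly below, against 12.3%. Fewer had the same sign in both replicate numbers: 7 of 13 were lower in both for late estradiol against Ovx and 9 of 13 against early estradiol, where 24.8% and 28.2% of all probe sets were, and 5 of 13 were higher in both after Ovx than in sham, where 21.5% were.

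Scaling shifted these medians. Without between-array normalization, the median of all probe sets was -0.31 for Ovx minus sham, -0.31 for late estradiol minus Ovx and -0.47 for late minus early estradiol, and the member medians were -0.16, -0.80 and -1.01. With each array centred on its median they were -0.02, -0.55 and -0.78 where all probe sets stood at -0.17, -0.06 and -0.25. Both settings differ from each other only by a shift of each array, whereas quantile normalization changes values by an amount that depends on the signal. Relative to the median of all probe sets, the member medians were 0.16, -0.50 and -0.53 under both. The Ovx minus sham median of the members, 0.21 after quantile normalization, was below 0 under both. The late estradiol medians kept their sign under both.

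**Figure D3:**
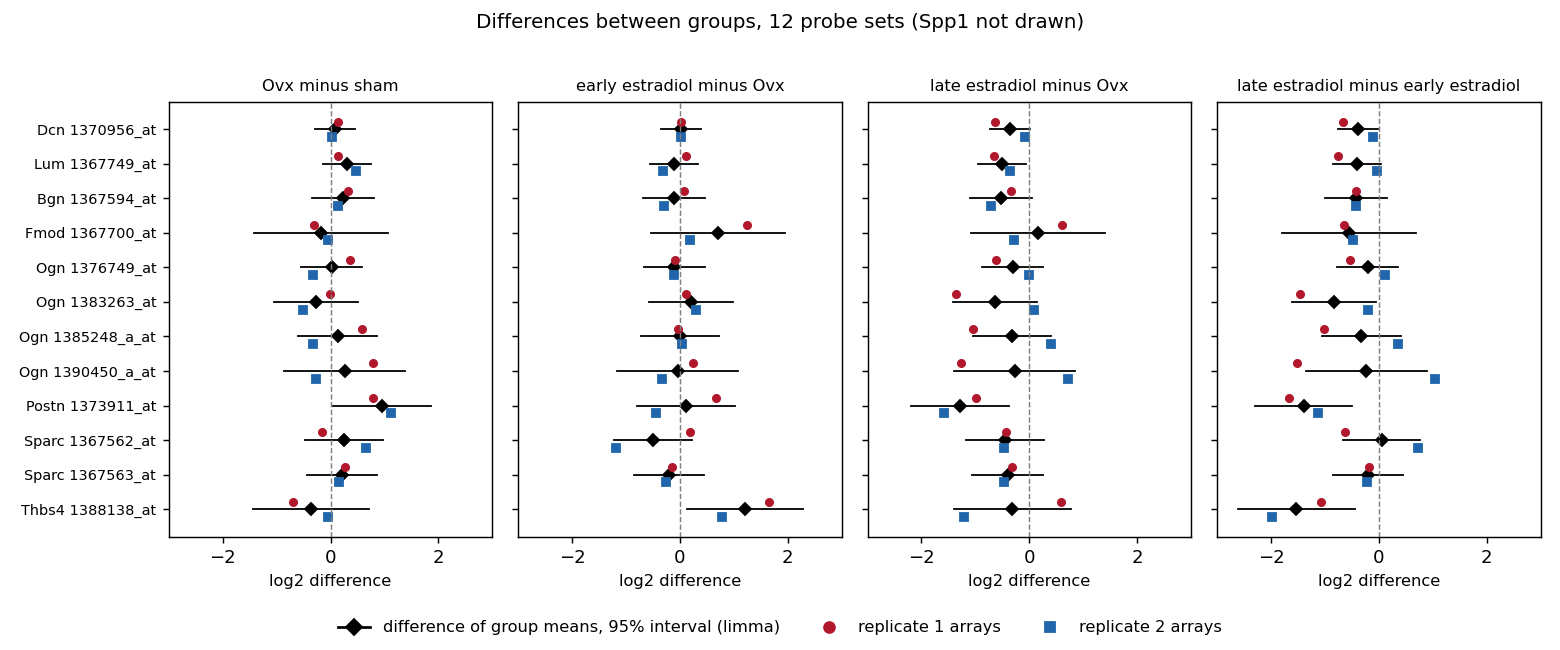
Log2 differences between groups (x axis) for 12 member probe sets (y axis) in 4 comparisons; diamonds with bars are limma differences of group means with 95% intervals, circles the replicate 1 and squares the replicate 2 arrays alone. Spp1 is left out because of its wide intervals; Postn lay left of 0 in both late estradiol panels, where Ogn and Dcn lay farther left in replicate 1 than in replicate 2.

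Other genes of the same families were read from lists of further small leucine-rich proteoglycans, matricellular proteins, enzymes that build their glycosaminoglycan chains, and receptors and partners, with each gene at its brightest probe set. In none of the 6 comparisons did a gene of the 4 lists pass (limma, Benjamini-Hochberg). Of 5 further proteoglycans measured, 3 were lower with late estradiol than after Ovx (median -0.10). Prelp, which anchors basement membranes to collagen, stood at -0.81 ± 0.35 (SE), with -0.52 and -1.09 in the replicate numbers, and Aspn (asporin) at -0.92 ± 0.42, with -1.21 and -0.64, whereas Podn (podocan) stood at 0.45 ± 0.42 and Omd (osteomodulin) at 0.39 ± 0.44. Prelp stood at -0.90 ± 0.35 for late against early estradiol, with like values in both replicate numbers (-0.93 and -0.87).

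Of 14 further matricellular genes, 12 were lower with late than with early estradiol (median -0.36, all probe sets -0.01), and 8 were lower than after Ovx (median -0.06). Spon1, a secreted adhesion protein, stood at -0.96 ± 0.28 (SE) for late against early estradiol and at 0.90 ± 0.28 for early estradiol against Ovx, with 1.11 and 0.69 in the replicate numbers. Mgp, an inhibitor of calcification, stood at -0.44 ± 0.14 and Thbs3, the close relative of Thbs4, at -1.35 ± 0.60 for late against early estradiol, and Fstl1 at -0.45 ± 0.22. With early estradiol against Ovx, Ccn3 stood at 1.46 ± 0.63 and Fbln5, an elastic fibre protein, at 0.68 ± 0.36. After Ovx, Tgfbi stood at 0.43 ± 0.23 and Fbln5 at -0.70 ± 0.36 against sham, and 7 of the 14 were higher (median -0.03).

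Enzymes of glycosaminoglycan chain synthesis showed no lean with late estradiol: 10 of 18 were higher and 8 lower than after Ovx (median 0.02), and 8 and 10 than with early estradiol (median -0.01). Of these, Chsy1, a chondroitin synthase, stood at -0.30 ± 0.23 (SE) and B3gat3, which completes the linker of the chain, at 0.68 ± 0.46 for late against early estradiol. Of 24 receptors and partners, 18 were lower with late estradiol than after Ovx (median -0.30) and 20 than with early estradiol (median -0.33). The leading genes of that list were the collagen partners Col3a1, Col1a1 and Col1a2, at -1.08 ± 0.19, -1.45 ± 0.29 and -1.26 ± 0.34 for late against early estradiol. Cd44, a receptor of osteopontin and hyaluronan, stood at 0.59 ± 0.36 after Ovx against sham and at -0.63 ± 0.36 with either estradiol group against Ovx.

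Markers of some other cell types moved with the members, and those of others did not. The mean log2 signal of 14 fibroblast markers was 6.74 and 7.45 with late estradiol against 7.65 to 8.12 on the other 6 arrays, and 14 of 14 were lower than after Ovx (median -0.67). The differences ran from -1.72 ± 0.19 (SE) for Col3a1 and -1.71 ± 0.29 for Col1a1 to -0.10 ± 0.17 for Gsn and -0.01 ± 0.21 for Pdgfra. Col1a1, Col1a2, Col3a1 and Ddr2 are also in the list of receptors and partners. Postn followed the order of the fibroblast means at its ends, lowest on late estradiol replicate 1 and highest on Ovx replicate 2. The mean of 15 macrophage and monocyte markers was 7.70 on Ovx replicate 2, where Spp1 was 11.21, and 5.78 to 7.16 on the other 7 arrays. That array also had the highest 3′ to 5′ ratio for actin, 3.06 against 1.71 to 3.01. Ovx replicate 1, with the lowest Spp1, had a macrophage mean of 6.11, which was not the lowest. Cardiomyocyte markers ranged from 12.42 to 12.56, endothelial markers from 7.55 to 7.92 and smooth muscle and pericyte markers from 7.03 to 7.69. Of 12 tendon, valve and cartilage markers, 3 passed the filter, at means of 4.59 to 5.49, and Thbs4 and Fmod are also made by those tissues. Blood cell markers, 7 in all, ranged from 6.14 to 7.89 and were highest on the early estradiol arrays (7.89 and 7.06). Thbs4 was also highest on these arrays, but with replicate 2 above replicate 1 (6.56 and 7.07). The blood cell markers were lower in 7 of 7 with late than with early estradiol (median -1.38, with -2.19 and -0.50 in the replicate numbers). With early estradiol they were higher than in sham in 6 of 7, from 2.61 ± 0.70 (SE) for S100a9 to -0.0008 ± 0.16 for Hbb. Macrophage markers were higher than in sham in 15 of 15 with early estradiol (median 0.69, with 1.02 and 0.19 in the replicate numbers). With late estradiol they were lower in 15 of 15 than with early estradiol (median -0.77, with -1.28 and -0.29). Against Ovx they were lower in 12 of 15 with late estradiol (median -0.57, with -0.43 and -1.09). Smooth muscle and pericyte markers were lower in 8 of 9 with late than with early estradiol (median -0.56, with -0.75 and -0.16). Other lists had medians above 0 for late estradiol against Ovx, but only the adipocyte list in both replicate numbers. Adipocyte markers were higher in 3 of 3 (median 0.17, with 0.22 and 0.19 in the replicate numbers). Endothelial markers were higher in 6 of 9 (median 0.22, with 0.54 and -0.01). For mesothelial and epicardial markers it was 3 of 5 (median 0.32, with 0.97 and -0.54). For tendon, valve and cartilage markers it was 2 of 3 (median 0.38, with 0.90 and -0.14). Without between-array normalization the medians of these lists were -0.16 to -0.0039, against -0.31 over all 18625. Cardiomyocyte markers had a median of -0.04 for late estradiol against Ovx after quantile normalization. The part of any of these cell types in the member values was not tested.

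**Figure D4:**
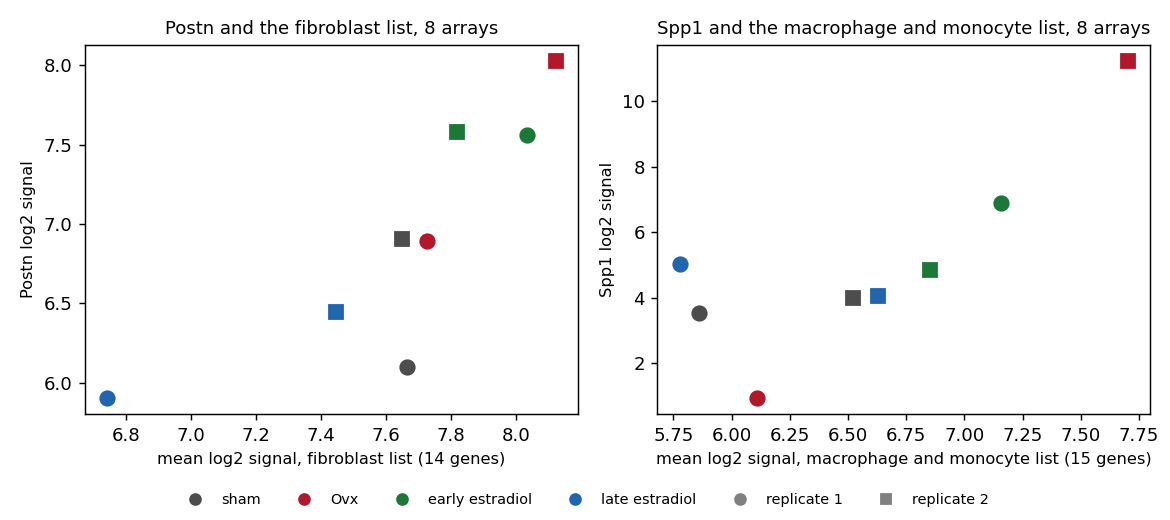
Log2 signal of Postn against the mean of 14 fibroblast markers (left) and of Spp1 against the mean of 15 macrophage and monocyte markers (right), 1 point per array, colour for group and shape for replicate. Ovx replicate 2 is at the upper right of both plots (Postn 8.02, Spp1 11.21), and late estradiol replicate 1 at the lower left of the Postn plot (5.91).

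Over the 8 arrays, the likeness of patterns was measured as the root mean square (RMS) difference between log2 values centred on each gene's own mean, among 10450 genes. Within the family, Dcn and Lum were the most alike, with an RMS difference of 0.12 where their own RMS deviations were 0.19 and 0.24. Genes outside the family lay nearer to each, with Pabir1 at 0.067 from Dcn and C19h1orf198 at 0.089 from Lum. The measure is not scaled, so it can be small for any pair of genes with narrow ranges. Spp1 differed from every other member by 2.43 or more. The genes nearest to Postn (own RMS 0.71) were Cybb, which belongs to the oxidase of phagocytes, at 0.22, Actn1, a non-muscle α-actinin, at 0.33, and Laptm5, a lysosomal protein of blood cells, at 0.34. Nearest to Spp1 (own RMS 2.80) were Raph1 at 1.74, Mmp12, the macrophage elastase, at 1.75 and Gpnmb, a membrane protein found in macrophages, at 1.91. Raph1, Mmp12 and Gpnmb stood highest on Ovx replicate 2, as Spp1 did, so their likeness to it is not separate from the values of that array. Thbs4 was nearest to Mpg at 0.31 (own RMS 0.71), and Bgn to Ctnnd1, p120 catenin, at 0.10 (own RMS 0.28). All of these share the arrays and their differences in brightness and RNA quality.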

How the data were processed

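Signal was measured on 8 single-colour Affymetrix arrays, 1 per pool of 3 rat hearts and 2 per group. The deposited values are linear intensities, 1 per probe set and array; the submitters' processing notes name MAS5. Its version, its scaling target and the time of tissue collection are not stated in what was used here. Values below 1 were set to 1, log2 values of the 31042 probe sets other than 57 controls were quantile normalized, and those with a mean at or above the 40th percentile were kept. Group means were fitted over all 8 arrays with limma 3.58.1 in R 4.3.3 (intensity trend, 4 residual degrees of freedom, two-sided, Benjamini-Hochberg within a comparison over all 18625 probe sets, threshold 0.05); the code was tested on simulated data. The trimmed mean leaves out 2% at each end. Genes were named from the platform annotation and matched to RefSeq (GRCr8) by Entrez number: 20826 probe sets had 1 symbol, 436 several and 9780 none. Members, lists and tests were chosen with earlier results of these data known. All members are named; of each other list, genes of smallest p are.

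Alternatives changed the normalization, filter, trend, added signal, replicate block, arrays left out and the averaging of probe sets.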

Additional observations from a re-analysis of the deposited data

How the results depend on the processing

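No member passed in the 6 comparisons under any alternative but those that leave out Ovx replicate 1. Of the 78 member differences, 27 exceeded their own standard error, and only a sign change among these is counted as a reversal here. The sign was kept by 78 of 78 with no filter, with no intensity trend and with the replicate block, by 76 with 32 added before log2, by 66 with median centring, and by 59 both without between-array normalization and without the 2 dimmest arrays (late estradiol replicate 1 and Ovx replicate 1). The first reversal was Lum for Ovx minus sham without between-array normalization (-0.074), where the median of all probe sets was -0.31. Another was Fmod for early estradiol minus Ovx with an array left out. It ran from -0.033 without early estradiol replicate 1 to 1.45 without early estradiol replicate 2. The last was 1383263_at of Ogn for late estradiol minus Ovx without the 2 dimmest arrays (0.095). The cause was not tested.

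Spp1 passed for Ovx minus sham without Ovx replicate 1 (7.46, 1 member) and, without the 2 dimmest arrays, for that comparison (7.46, 1 member, limma adjusted p = 0.0131) and for late estradiol minus Ovx (-7.15, 1 member, adjusted p = 0.0458), where the lone Ovx array is the one at 11.21 and is assumed to vary like the other groups. Over all probe sets, calls without the 2 dimmest arrays were 6 for Ovx minus sham, 1 for early estradiol minus Ovx and 4 for late estradiol minus Ovx. For late estradiol minus Ovx there was 1 call with no filter, 1 with 32 added and 1 with the replicate block. With 1 array left out, calls ranged from 0 to 3 for Ovx minus sham, 0 to 69 for late estradiol minus Ovx, 0 to 98 for late minus early estradiol and 0 to 87 for late estradiol minus sham, the highest in the last 3 without late estradiol replicate 2.

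The groups share replicate numbers, and replicate 2 minus replicate 1 differences correlated at r = 0.277 to 0.332 across probe sets in all pairs of groups. With 2 numbers this does not settle whether they pair the samples. With the replicate block, the smallest limma adjusted p of a member was 0.503 (Postn, late minus early estradiol, -1.39 ± 0.29), and 0 members passed.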

Other observations

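On the array with the high osteopontin signal, Ovx replicate 2, other genes also stood above all 7 other arrays. They were chosen after their values were seen, and 2381 of the 18625 probe sets (12.8%) had their highest value on that array. After Spp1, the largest gaps to the next highest array were those of Gpnmb (10.69, gap 3.14), Mmp12 (7.54, gap 2.98), Ccl2, a monocyte chemokine (8.61, gap 2.41), Cd300c2, a myeloid receptor (9.01, gap 2.40), and Lgals3, galectin-3, a lectin of macrophages and fibrosis (10.86, gap 2.27). Next in order were Anpep (gap 2.06), Raph1, Tns1 and Stat3 (gap 1.81), and then Cd68, a lysosomal marker of macrophages (gap 1.78). These are values of a single pool of 3 hearts and have no replicate check.

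The spread between the 2 arrays of a group was wider for members than for all tested probe sets in the estradiol groups. The median gap was 0.65 against 0.46 with late estradiol and 0.52 against 0.34 with early estradiol, while it was 0.45 against 0.45 after Ovx and 0.39 against 0.35 in sham.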
